A study of Mus musculus with 6 samples.

Results

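Glutamate receptors and the proteins that hold them at the synapse were followed, subunit by subunit, in the ventral hippocampus of 6 mice. The set held 51 genes of the 56941 in the deposited count table, named from textbook membership: 22 receptor genes, 13 auxiliary subunits, 14 scaffold genes of the postsynaptic density and 2 subunits of the kinase CaMKII. Each was found once by its symbol, and all 51 had enough counts to be among the 19354 genes tested. The 3 libraries labelled NEGR1_overexpression were compared with the 3 labelled NEGR1_control, each from the ventral hippocampus of a separate mouse. NEGR1 is a membrane-anchored adhesion molecule of neurons, and the study asked how its excess bears on memory and on anxiety- and depression-like behaviour. The labels and the design text give no strain, age or sex for the mice, and do not state how NEGR1 was overexpressed or in which cells. Libraries held 30726110 to 38108394 counts. Levels below are CPM, read counts scaled to a common library size with TMM factors, given for overexpression replicates 1, 2 and 3 and then control replicates 1, 2 and 3, and a fold is overexpression over control with its 95% interval.

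Glutamate opens AMPA, kainate and NMDA receptors, which are tetrameric ion channels, and activates metabotropic receptors, which signal through G proteins. AMPA receptors carry most of the fast excitatory current, while NMDA receptors admit calcium when glutamate coincides with depolarisation, and that calcium activates CaMKII, a step needed for long-term potentiation in the hippocampus. Auxiliary subunits set the gating and surface delivery of the channels. Under the membrane, MAGUK proteins such as PSD-95 bind receptors and auxiliaries, SAPAP proteins bind the MAGUKs, and Shank and Homer proteins form the deeper layer that reaches metabotropic receptors and the actin skeleton.

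The targeted gene and the tissue were checked first. Negr1 stood at 185, 199 and 195 CPM in the overexpression libraries and at 181, 168 and 179.9 CPM in the controls, a fold of 1.09 (1.01 to 1.19) with an adjusted p of 0.488 in edgeR's quasi-likelihood test. The libraries labelled overexpression were therefore each above each control, but the difference did not pass the threshold of 0.05. The counts are of the mouse gene as annotated, and whether they include the introduced transcript is not known, so the fold is not a measure of the overexpression. Marker genes of neurons, dentate granule cells, CA3 and the CA1 and subiculum field were detected in every library. Markers of neighbouring tissue were present too: the summed level of 5 choroid plexus genes was 661 CPM in overexpression replicate 1 and 4.55 to 40.6 CPM in the other libraries. The 6 oligodendrocyte markers summed to 2948 to 3483 CPM in overexpression and 3707 to 4655 CPM in control libraries. Of these, 0 had a log2 fold change above 0, and 5 had an unadjusted p under 0.05 in edgeR's test. The 6 astrocyte markers summed to 1560.3 to 1688 and 1730.5 to 1911 CPM. Among these only Gfap, at 0.700-fold, had groups that did not overlap. The groups overlapped for Aqp4 (0.933-fold), Aldh1l1 (0.942), Slc1a3 (0.986), Fgfr3 (1.01) and Gja1 (1.04). All 6 meningeal markers had log2 fold changes above 0 (median 0.64, 4 at an unadjusted p under 0.05 in edgeR's test). They summed to 96.8 to 124 CPM in overexpression and 69.4 to 111 CPM in control libraries. The 6 thalamic markers summed to 114.2 to 145 and 113.8 to 117 CPM, which overlapped. Of these 6, 5 had log2 fold changes above 0 and 1, Zic1 at 1.46-fold, had an unadjusted p under 0.05 in edgeR's test. Lef1 was at 0.974-fold. None of the markers passed the adjusted p of 0.05 in edgeR's test. The 8 neuronal markers summed to 7413 to 7731 and 7650 to 8251 CPM. Of these, 1 had a log2 fold change above 0 (median -0.042), and 1, Slc17a7 at 0.916-fold, had an unadjusted p under 0.05 in edgeR's test. The part of these markers in the values below was not tested. In bulk tissue, fewer cells of a type and less RNA per cell cannot be told apart.

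Across the set the differences were small. In edgeR's quasi-likelihood test 0 of 51 members passed an adjusted p of 0.05, where 9 of all genes tested, or 0.0465%, did; the smallest adjusted p of a member was 0.251, for Grin1. That genome-wide count moved with single libraries, to 63 when overexpression replicate 1 was left out and 5 when replicate 2 was. It was 39, 2 and 3 when control replicates 1, 2 and 3 were left out in turn. The member count was 0 in each of these fits, and also 0 by DESeq2 and by limma-voom with sample weights. The median log2 fold change was -0.0077 over the members and 0.0015 over all genes tested, with 24 members above 0 and 27 below. For 45 of the 51 members the 95% interval lay within 1.25-fold in either direction, which was true of 46.4% of all genes tested and of 77.0% of the genes at or above the level of the lowest member. The 6 members whose intervals reached further were Grm3, Grm4, Grm8, Cacng5, Homer1 and Homer3.

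**Figure D1:**
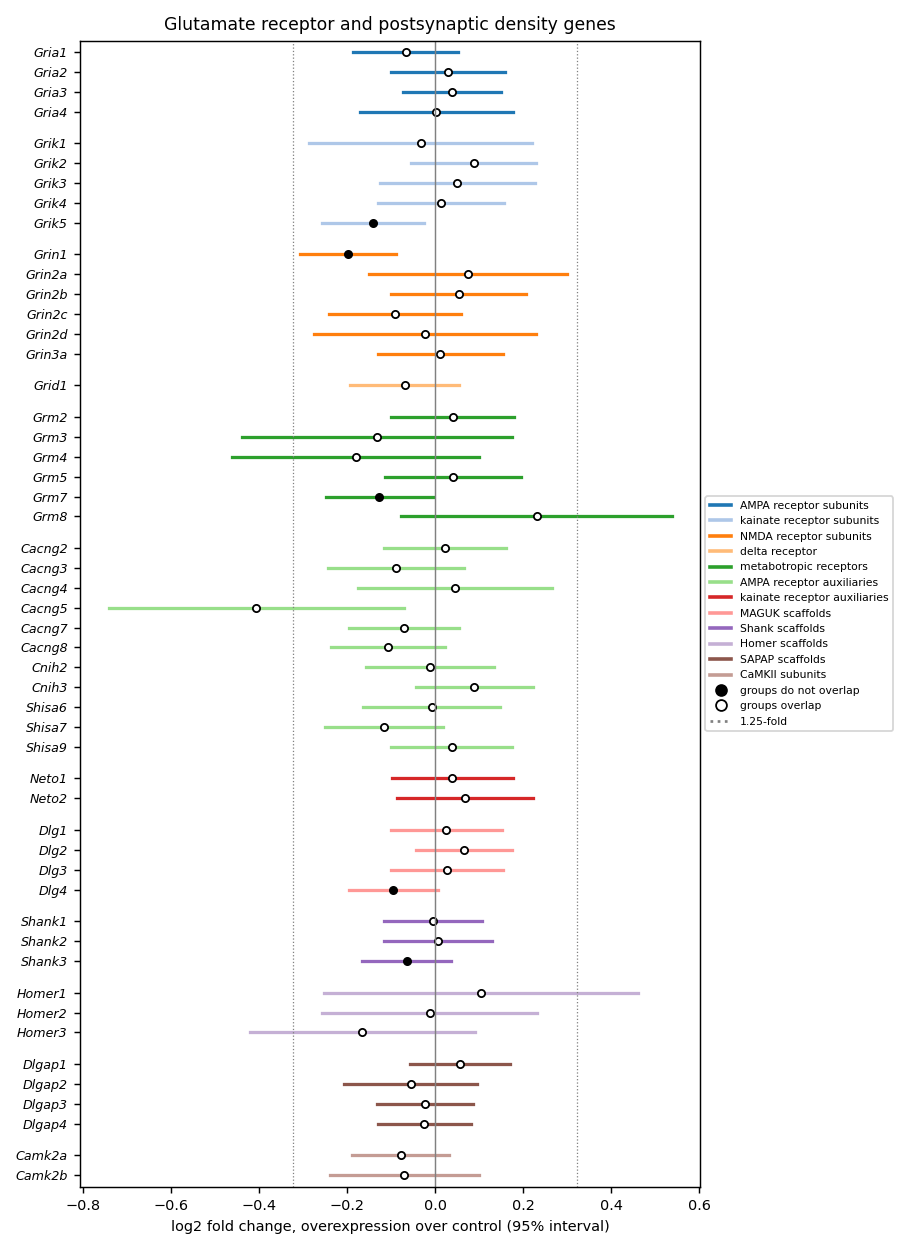
Log2 fold change of each of the 51 members (points) with its 95% interval (lines, coloured by role), overexpression over control, n = 3 per group; dotted lines mark 1.25-fold. Filled points mark the 5 members whose groups did not overlap, and all 5 lie below 0.

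At an unadjusted p under 0.05 there were 4 members (7.84%), against 9.24% of all genes tested. All 4, namely Grin1, Grik5, Grm7 and Cacng5, were lower in overexpression, a direction that 4.6% of all genes tested had at that p. Over the other settings the number ran from 2, with the third library of either group left out, to 6, by limma-voom (6 lower) and without overexpression replicate 2 (4 lower). Groups did not overlap for 5 members (9.80%), against 15.1% of all genes tested. In these 5, Grin1, Grik5, Grm7, Dlg4 and Shank3, each overexpression library was below each control library, as was the case for 8.07% of all genes tested, and 0 members were apart in the other direction, against 7.07%. Both shares over either direction were below those of all genes tested. Of the genes at or above the level of the lowest member, 11.2% had an unadjusted p under 0.05, and 6.43% had it in the lower direction. Groups did not overlap for 17.3% of these genes, with overexpression lower for 10.7%, against 9.80% of the members.

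Promoter sequences are shown for 3 of these 5 members, Grin1, Grik5 and Shank3, which have a single start in RefSeq, beside Gria2, a channel subunit whose groups overlapped. They were chosen after the values were seen. Each line holds the 250 bases before the start, 5′ to 3′ on the gene's strand (RefSeq, GRCm38.p6), and capitals mark GC boxes (GGGCGG), cAMP response elements (TGACGTCA) and EGR sites (GCGNGGGCG), searched on both strands, where a GC box and an EGR site can share bases.
Grin1 (chr2:25319188-25319437, minus strand): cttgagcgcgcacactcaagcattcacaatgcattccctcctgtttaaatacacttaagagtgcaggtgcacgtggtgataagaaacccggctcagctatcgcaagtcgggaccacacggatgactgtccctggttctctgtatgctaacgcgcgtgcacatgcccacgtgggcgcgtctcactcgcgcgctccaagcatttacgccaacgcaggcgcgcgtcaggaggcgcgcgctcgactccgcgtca
Grik5 (chr7:25072370-25072619, minus strand): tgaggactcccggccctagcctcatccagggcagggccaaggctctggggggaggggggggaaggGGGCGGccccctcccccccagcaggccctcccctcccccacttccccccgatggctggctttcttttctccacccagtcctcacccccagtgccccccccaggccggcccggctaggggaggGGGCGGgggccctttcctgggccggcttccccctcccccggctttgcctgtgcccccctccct
Shank3 (chr15:89499358-89499607, plus strand): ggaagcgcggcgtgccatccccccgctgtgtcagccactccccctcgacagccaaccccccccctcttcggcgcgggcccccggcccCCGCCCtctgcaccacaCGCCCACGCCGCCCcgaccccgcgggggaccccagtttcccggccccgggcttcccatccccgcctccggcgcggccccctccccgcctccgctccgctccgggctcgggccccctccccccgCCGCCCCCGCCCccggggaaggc
Gria2 (chr3:80802836-80803085, minus strand): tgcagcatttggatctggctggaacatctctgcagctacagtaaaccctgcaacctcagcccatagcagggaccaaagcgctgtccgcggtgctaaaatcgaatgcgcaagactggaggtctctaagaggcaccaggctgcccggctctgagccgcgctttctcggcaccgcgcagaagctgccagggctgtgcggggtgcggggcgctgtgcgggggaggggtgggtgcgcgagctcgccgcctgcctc
The Grik5 window held 2 GC boxes and the Shank3 window 4, along with 2 EGR sites, while the Grin1 and Gria2 windows held no match to any of the 3 motifs. GC content was 58.8% for Grin1, 75.2% for Grik5, 82.4% for Shank3 and 64.8% for Gria2. The median was 52.4% over 32851 listed promoters and 62.0% over the 50 listed for members. Over the 34 members with a listed promoter (50 starts), 48.0% of windows held a GC box, 10% an EGR site and 0% a cAMP response element. The shares over all listed promoters were 32.7%, 4.70% and 1.55%.

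The AMPA receptor subunits, which form the fast channel, did not differ between groups beyond the spread of the libraries. Gria1 encodes GluA1, the subunit most abundant per length at 181 CPM per kb of exon. It was at 999.7, 1117 and 1093 CPM against 1102, 1176 and 1084 CPM, a fold of 0.955 (0.879 to 1.04). Overexpression replicate 1 was the lowest of the 6, and the groups overlapped. Gria2, whose product limits calcium entry through the channel, was at 1031 ± 78.2 CPM (SD, n = 3) against 1010 ± 51.3 CPM. The values for Gria3 were 271 ± 9.34 against 264 ± 9.85 CPM and for Gria4, 84.0 ± 11.0 against 83.8 ± 2.67 CPM. Per length the order was Gria1, Gria2, Gria3 and Gria4, with no overlap of neighbours across the 6 libraries. Gria2 made up 42.6, 39.8 and 43.5% of the counts of the 4 subunits in overexpression and 39.9, 40.9 and 41.5% in control libraries. That share, which does not depend on scaling between libraries, overlapped between groups.

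Among kainate receptor subunits, Grik5 was the one lower in each overexpression library. It encodes GluK5, a high-affinity subunit that forms channels together with the GluK1 to GluK3 subunits, and it was the most abundant of the class at 46.2 CPM per kb. Its level was 226, 238 and 217 CPM against 248, 244 and 259.6 CPM, each overexpression library below each control. The fold was 0.907 (0.837 to 0.982), with an unadjusted p of 0.0200 and an adjusted p of 0.456 in edgeR's test. Grik4, the other high-affinity subunit, was at 84.6 ± 5.86 against 83.8 ± 5.41 CPM. The low-affinity subunits overlapped as well: Grik2 was at 106 ± 9.64 against 100.03 ± 3.64 CPM, Grik3 at 83.5 ± 8.88 against 80.6 ± 6.78 CPM and Grik1 at 16.0 ± 2.82 against 16.3 ± 1.29 CPM. Neto1 and Neto2 encode auxiliary subunits of kainate receptors. Neto1, the more abundant per length, was at 233, 235 and 252 CPM against 216, 256 and 229 CPM, and Neto2 at 55.3 ± 3.41 against 52.7 ± 4.66 CPM, with overlap in both.

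Grin1 had the smallest p of the set. It encodes GluN1, the subunit that every NMDA receptor needs, and stood at 277, 279 and 261 CPM in overexpression against 304, 319 and 315 CPM in control libraries. All 3 overexpression libraries were below all 3 controls, with a fold of 0.872 (0.809 to 0.940), a log2 fold change of -0.20 ± 0.051 (SE), an unadjusted p of 0.0016 and an adjusted p of 0.251 in edgeR's test. It ranked 123 of the 19354 tested genes by p. The adjusted p was 0.0581 by DESeq2 and 0.0786 in edgeR without a filter on low counts, so it did not pass there either. Over the fits that left out 1 library, the log2 fold change ran from -0.22 to -0.17 and the adjusted p from 0.137 to 0.640.

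The GluN2 subunits pair with GluN1 and set the kinetics of the channel, and the groups overlapped for each of the 4 genes. Grin2b, the most abundant of the class per length, was at 931, 927 and 1059 CPM against 858, 1024 and 928 CPM, and Grin2a at 434, 482 and 575 CPM against 446, 506 and 463 CPM. In both genes overexpression replicate 3 was the highest library and the groups overlapped. The ratio of Grin1 counts to those of Grin2a plus Grin2b was 0.203, 0.198 and 0.160 in overexpression and 0.233, 0.208 and 0.227 in control libraries, lower in each of the former. The nearest values, in overexpression replicate 1 and control replicate 2, were close to each other. The means were 0.187 ± 0.0237 and 0.223 ± 0.0130 (SD, n = 3), and the difference was -0.044 to -0.022 with any 1 library left out. The ratio of Grin2a to Grin2b, which rises as synapses mature, was 0.466, 0.520 and 0.543 against 0.520, 0.494 and 0.499 and overlapped. Grin2c was at 57.6 ± 3.87 against 61.3 ± 4.65 CPM, Grin2d at 15.1 ± 1.87 against 15.4 ± 2.10 CPM and Grin3a, of a subunit that lowers calcium permeability, at 65.9 ± 5.02 against 65.3 ± 3.08 CPM. Grid1, which encodes the delta receptor GluD1, was at 71.7, 71.8 and 65.4 CPM against 73.5, 74.1 and 71.6 CPM, and the groups overlapped.

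**Figure D2:**
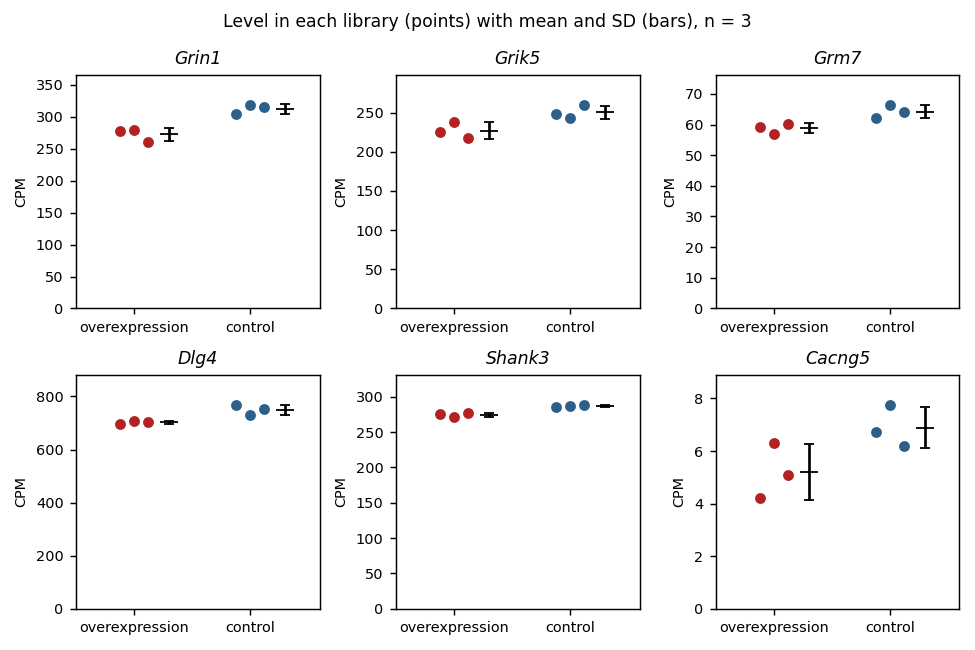
CPM in each library (points, replicates 1 to 3 from left to right) with mean and SD (bars), n = 3 per group, for the 5 members whose groups did not overlap and for Cacng5. Grin1 sits between 261 and 279 CPM in overexpression and between 304 and 319 CPM in control libraries, and in Cacng5 the groups overlap.

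Metabotropic receptors were low apart from Grm5, and 1 of the 6 had groups that did not overlap. Grm5, a postsynaptic receptor that releases calcium from stores, was at 375, 352 and 435 CPM against 359, 392 and 379 CPM, with both the lowest and the highest library in overexpression. Grm7 encodes mGlu7, a presynaptic receptor that curbs transmitter release. It was at 59.4, 56.9 and 60.0 CPM against 62.0, 66.4 and 64.1 CPM, a fold of 0.916 (0.842 to 0.996) with an unadjusted p of 0.0417 and an adjusted p of 0.518 in edgeR's test. Its overexpression libraries were all below its control libraries. Grm8, another presynaptic receptor, was at 10.7, 7.34 and 10.2 CPM against 7.79, 7.34 and 8.95 CPM. It had the highest fold of the set, 1.17 (0.948 to 1.45), and overlapping groups. Grm2, which acts at presynaptic terminals, was at 49.96 ± 3.09 against 48.6 ± 2.57 CPM. Grm3, much of it made by astrocytes, was at 46.1 ± 8.13 against 50.5 ± 5.42 CPM, and Grm4, a presynaptic receptor, at 13.5 ± 2.81 against 15.3 ± 1.08 CPM.

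The AMPA receptor auxiliaries belong to 3 families, the TARPs (Cacng genes), the cornichons (Cnih) and the Shisa or CKAMP proteins, and 0 of the 11 had groups that did not overlap. Cacng5, a weakly expressed TARP with 141 to 291 counts a library, had the lowest fold of the whole set at 0.755 (0.598 to 0.953). It was at 4.21, 6.32 and 5.10 CPM against 6.73, 7.74 and 6.20 CPM, with overexpression replicate 2 above control replicate 3. The unadjusted p was 0.0215 and the adjusted p 0.460 in edgeR's test, and the log2 fold change ran from -0.57 to -0.28 when 1 library was left out, the latter without overexpression replicate 1. Cacng8, the main TARP of the hippocampus, was at 94.9, 105 and 99.6 CPM against 103, 114 and 106 CPM. The ratio of Cacng8 to Cacng2, the TARP also called stargazin, was 1.41, 1.61 and 1.54 in overexpression and 1.67, 1.61 and 1.72 in control libraries, each overexpression value being the lower, although the nearest values, in replicate 2 of each group, were almost equal. Cacng2 alone was at 65.7 ± 1.36 against 64.6 ± 5.25 CPM, Cacng3 at 48.4 ± 5.27 against 51.4 ± 0.412 CPM, Cacng4 at 18.3 ± 2.68 against 17.7 ± 0.741 CPM and Cacng7 at 107 ± 6.34 against 112 ± 3.41 CPM.

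Cnih2, a cornichon that slows AMPA receptor closing, was the most abundant auxiliary per length at 141 CPM per kb. It was at 171, 206 and 201 CPM against 188, 197 and 198 CPM, with overexpression replicate 1 the lowest of all. Cnih3 was at 64.6, 67.9 and 64.2 CPM against 61.6, 57.7 and 65.7 CPM. Shisa7 was at 220.4, 234 and 223 CPM against 261, 221 and 252 CPM, where control replicate 2 lay among the overexpression libraries. Shisa6 was at 231 ± 22.3 against 233 ± 15.5 CPM and Shisa9 at 68.4 ± 1.55 against 66.6 ± 5.09 CPM, so the 3 Shisa genes and both cornichons overlapped.

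**Figure D3:**
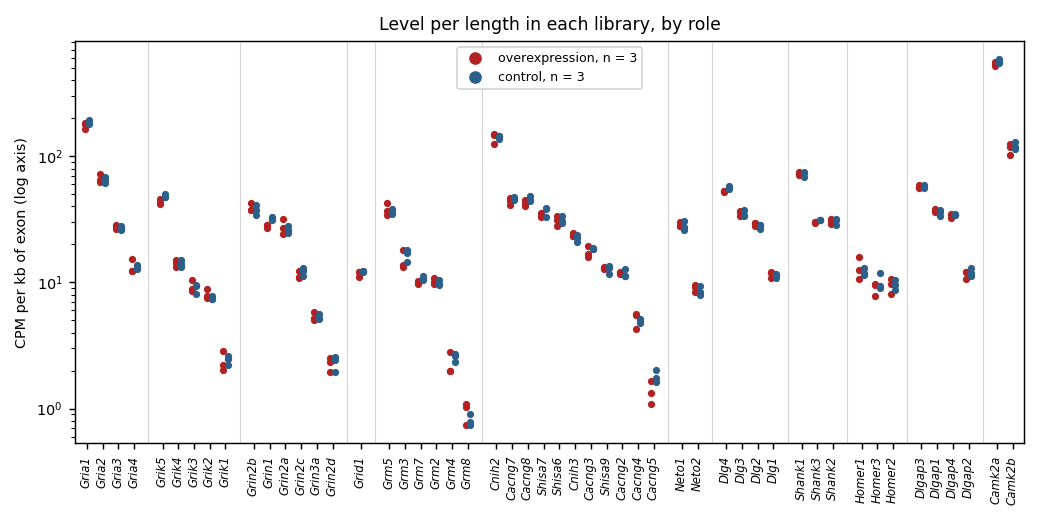
Level of each member in CPM per kb of annotated exon (log axis) in the overexpression and control libraries, n = 3 each, ordered within each role. Camk2a is the highest at 553 and Grm8 the lowest at 0.880 CPM per kb as means of the 6 libraries, and the 2 colours lie over each other for most genes.

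Of the scaffold genes, Dlg4 and Shank3 were lower in each overexpression library. Dlg4 encodes PSD-95, the central MAGUK of the postsynaptic density, and was at 695, 708 and 704 CPM against 767, 729 and 754 CPM. The fold was 0.937 (0.873 to 1.005), with an unadjusted p of 0.0647 and an adjusted p of 0.574 in edgeR's test. Shank3, a scaffold whose loss in humans is linked to autism, was at 275, 271 and 277 CPM against 286, 287 and 288 CPM. Its libraries were close within each group, and the fold was 0.956 (0.892 to 1.03), with an adjusted p of 0.710 in edgeR's test. The other MAGUKs had folds just above 1 and overlapping groups: Dlg2, which encodes PSD-93, was at 475 ± 15.2 against 454 ± 16.5 CPM, Dlg3, which encodes SAP102, at 208 ± 10.7 against 204 ± 12.5 CPM and Dlg1, which encodes SAP97, at 124 ± 7.43 against 122 ± 4.01 CPM. The ratio of Dlg3 to Dlg4 was 0.282, 0.298 and 0.308 in overexpression and 0.260, 0.2996 and 0.258 in control libraries, with control replicate 2 inside the range of the overexpression libraries.

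Shank1, the Shank gene highest per length, was at 784, 756 and 741 CPM against 771, 722 and 795 CPM, a fold of 0.996 (0.922 to 1.08), and Shank2 at 329 ± 13.9 against 328 ± 20.1 CPM. The SAPAP genes, whose products link MAGUKs to Shanks, overlapped in all 4 cases. Dlgap3 was at 257, 267 and 251 CPM against 264, 254 and 270.1 CPM, Dlgap1 at 664 ± 18.98 against 638 ± 33.1 CPM, Dlgap4 at 286 ± 9.05 against 291 ± 3.64 CPM and Dlgap2 at 71.5 ± 5.17 against 74.3 ± 5.57 CPM.

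Homer1, which ties metabotropic receptors to Shank scaffolds, varied within the overexpression group. It was at 149, 128 and 190.4 CPM against 138, 155 and 141 CPM, so that its lowest and highest libraries were both overexpression libraries. Its gene-wise coefficient of biological variation was 12.7%, against a median of 6.54% over the members and 9.44% over all genes tested. Homer1 yields long scaffold isoforms and a short form induced by neuronal activity, and gene counts do not separate them. Arc, another activity-induced gene, was at 63.2, 69.8 and 133 CPM against 101, 92.6 and 110.2 CPM. Overexpression replicate 3 was the highest library for both genes. The lowest was overexpression replicate 1 for Arc and overexpression replicate 2 for Homer1. The part of neuronal activity in these levels was not tested. Homer2 was at 120.0 ± 16.7 against 121 ± 11.7 CPM and Homer3 at 31.1 ± 3.53 against 34.8 ± 5.24 CPM.

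**Figure D4:**
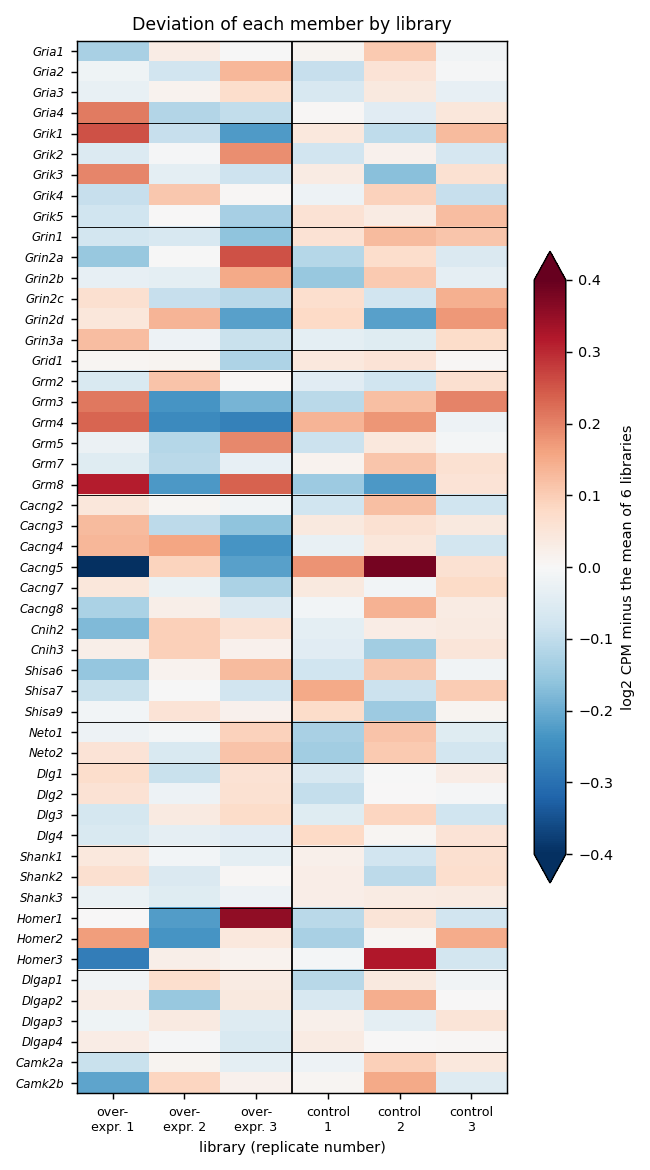
Log2 CPM minus the mean of the 6 libraries for each member (rows, by role) and library (columns); red is above and blue below the mean, and the colour scale ends at the arrows. Homer1 is highest in overexpression replicate 3, and Cacng5 ranges from its lowest in overexpression replicate 1 to its highest in control replicate 2.

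The CaMKII subunits form the holoenzyme that calcium through NMDA receptors activates, and Camk2a was the most abundant member. It was at 3877, 4149 and 4014 CPM against 4066, 4403 and 4243 CPM, a fold of 0.947 (0.878 to 1.02), and overexpression replicate 2 lay above control replicate 1. Camk2b was at 1050 ± 109 against 1103 ± 81.1 CPM. The ratio of Camk2a to Camk2b was 4.18, 3.65 and 3.70 against 3.77, 3.69 and 4.09 and overlapped.

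Members with GC-rich transcripts tended to have lower folds. Over the 51 members, which share the same 6 libraries, the log2 fold change had a Pearson correlation of -0.42 with the GC content of the transcripts, against -0.12 over the 18918 tested genes with a GC value. Of the 25 members above the median GC content of 52.5%, 19 had a log2 fold change below 0, with a median of -0.065. Of the 26 at or below it, 8 did, with a median of 0.028. Grin1 has a GC content of 58.4%, Grik5 60.8%, Dlg4 54.7%, Shank3 62.1% and Grm7 48.1%, while Grin2a and Grin2b have 49.6 and 47.3%. With an offset for GC content in each library, the correlation over members was -0.068. The offset takes out the trend with GC content over the tested genes in each library, so a smaller correlation is partly built in. The log2 fold changes became -0.15 for Grin1, -0.100 for Grik5, -0.060 for Dlg4 and -0.026 for Shank3, from -0.20, -0.14, -0.094 and -0.065, whereas Grm7 was at -0.14, from -0.13. The adjusted p of Grin1 was then 0.412 in edgeR's test. The part of GC content in the Grin1 ratio was not tested.

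**Figure D5:**
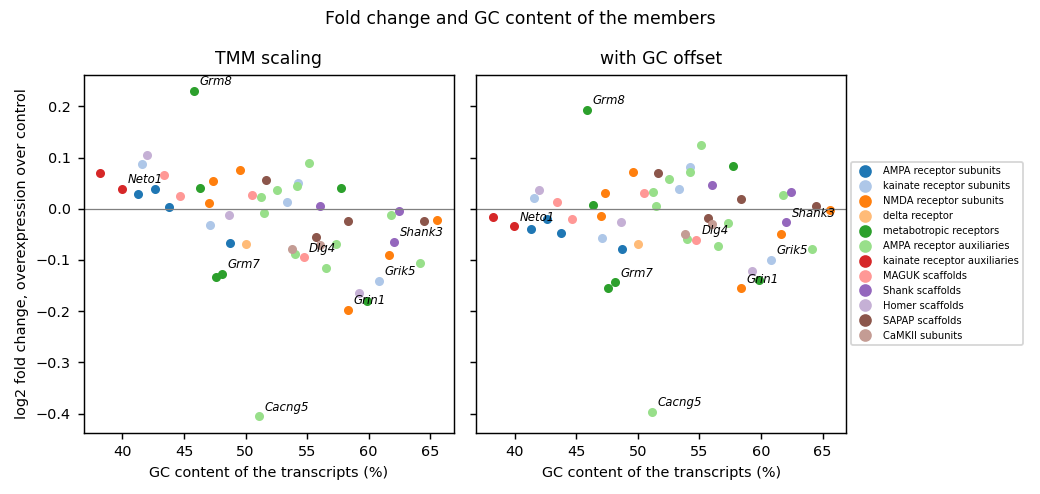
Log2 fold change of the 51 members against the GC content of their transcripts (%), with TMM scaling (left) and with an offset for GC content (right), coloured by role. The correlation is -0.42 on the left and -0.068 on the right, where a smaller value is partly built in by the offset. Grin1 moves from -0.20 to -0.15.

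Other genes of glutamate signalling gave no call either. Of 86 listed, 83 were tested, and 0 passed the adjusted p of 0.05 in edgeR's test, with a median log2 fold change of 0.0031. An unadjusted p under 0.05 was found for 8 (2 higher and 6 lower), or 9.64% against 9.24% of all genes tested, and for the lower direction 7.23% against 4.6%. Grin3b, Grm6 and Cacng1 had too few counts to test. Groups did not overlap for 9 of the 83, or 10.8% against 15.1% of all genes tested. In 7 of them overexpression was lower (8.43% against 8.07% of all genes tested) and in 2 it was higher. Cnih4, a cornichon gene with an unadjusted p of 0.0404 in edgeR's test, was 1 of these 2, at 36.5 ± 0.630 against 33.2 ± 1.12 CPM.

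Among genes for receptor assembly and trafficking, Porcn was at 56.8 ± 3.96 against 63.9 ± 2.60 CPM, Grip1, which binds GluA2, at 29.7 ± 2.34 against 33.7 ± 0.647 CPM and Gripap1 at 103 ± 2.30 against 109.9 ± 4.42 CPM, each lower in every overexpression library. Of 25 other postsynaptic density genes, 1 had an unadjusted p under 0.05, Iqsec1, at 241 ± 17.7 against 265 ± 3.78 CPM, and Cttn was at 169 ± 3.53 against 181 ± 5.40 CPM. Slc17a7, the vesicular glutamate transporter VGLUT1, was at 1212, 1358 and 1256 CPM against 1355, 1470 and 1354 CPM, and the groups overlapped. Slc1a1, a neuronal glutamate transporter, was at 132 ± 10.9 against 122 ± 0.726 CPM. Nptxr, the membrane receptor of the neuronal pentraxins that cluster AMPA receptors, was at 1024 ± 54.6 against 1120.3 ± 50.1 CPM, and Adam23 at 151 ± 5.99 against 167 ± 15.6 CPM. The edgeR adjusted p-values of these genes were at least 0.452.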

How the data were processed

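Strand-specific poly(A) libraries of ventral hippocampus RNA were sequenced, per the labels' protocols. The deposited table holds raw counts per Ensembl gene, and the submitters' processing notes list Trimmomatic 0.36, STAR 2.7.10 and featureCounts 2.0.3 as tools and both mm10 and GRCm39 as builds. Which build was counted, with which annotation release and strand setting, was not given in those notes or the labels. Reads shared by near-identical or overlapping genes may have been split or dropped.

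Groups came from the labels. edgeR 4.0.16 (R 4.3.3; quasi-likelihood, robust, TMM, default filter on low counts, group as the only term) was fitted to all genes, with Benjamini-Hochberg adjustment over the 19354 tested and a threshold of 0.05. Standard errors and 95% intervals came from the F statistic. With 3 against 3, an exact permutation p cannot go below 0.1, so ratios carry no p. Members and gene lists were chosen with earlier results of these data known. All members are given. Values in every library are given for the 10 members with the smallest p, those with groups apart and the highest per length in each role. Other pathway genes named are the 2 with the smallest p of each list, apart from some that are not reported here. Exon length and GC content came from GENCODE M21 (GRCm38). The length is the union of all annotated exons of a gene, so levels per length depend on the annotation and not only on transcript number. No libraries agreed within sampling noise (chi-square per degree of freedom 4.28 to 12.9). The test was checked on simulated counts. Alternatives included DESeq2 1.42.0, limma-voom (limma 3.58.1), other scalings and filters, a GC offset, a replicate block and leaving out each library.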

Additional observations from a re-analysis of the deposited data

How the results depend on the processing

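The count of members past the threshold was 0 under each of the 16 other settings and, in the edgeR fit, at an adjusted p of 0.1, with a smallest member adjusted p of 0.0581 (DESeq2). Their median log2 fold change ran from -0.026 to 0.0062. Over all genes the count of 9 became 101 by DESeq2, 2 by limma-voom, 304 with no filter on low counts, 5 with at least 1 CPM in 3 samples, 19 at an adjusted p of 0.1 and 2 to 63 when 1 library was left out; the cause was not tested. With the replicate number as a block it was 26, and 32 with the GC offset added. Same-numbered libraries did not deviate together (correlations of 0.017, 0.017 and 0.023 across genes), although each library correlated best with its own number, and nothing in the labels pairs them.

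Of the members given in every library, some with log2 fold changes near 0 changed sign. Shank1 (-0.0051) was at 0.0047 with upper quartile factors, 0.0084 with library totals, 0.00038 with no filter and 0.032 with the GC offset, with or without the block. Cnih2 (-0.012) was at 0.0022 with library totals, 0.028 with the GC offset and 0.023 with the block added. Dlgap3 (-0.023) was at 0.0045 with the GC offset and 0.0047 with the block, and Neto1 (0.040) at -0.035 and -0.032. With 1 library left out, the range was -0.063 to 0.067 for Cnih2, -0.044 to 0.025 for Shank1, -0.040 to 0.16 for Grin2a, -0.0096 to 0.12 for Grin2b, -0.048 to 0.10 for Grm5, -0.064 to 0.23 for Homer1 and -0.0100 to 0.11 for Neto1. Depth limits Cacng5 most, with as few as 141 counts in a library.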

Other observations

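Libraries differed from each other in which members they carried more of, beyond the comparison of groups. Overexpression replicate 1 was the highest library for 10 members. Among them were Gria4 (96.7 CPM, against 77.2 to 86.4 CPM in the other 5), Grik1 (19.1 against 13.7 to 17.5 CPM), Grik3 (93.7 against 72.9 to 85.4 CPM) and Grin3a (71.4 against 61.6 to 68.9 CPM). In the same library the 7 interneuron markers summed to 708 CPM, against 604 to 656 CPM in the others, and the 5 dentate granule cell markers to 215 CPM, against 262 to 390 CPM. It was also the lowest library for 11 members, among them Camk2b (928 CPM against 1036 to 1193 CPM), Cnih2, Gria1 and Shisa6. Overexpression replicate 3 was the highest for 10 members, namely Grin2a, Grin2b, Gria2, Gria3, Grik2, Grm5, Shisa6, Neto2, Dlg2 and Homer1, and the lowest for 12. Whether the make-up of the dissected tissue sets these levels was not tested.

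The mean log2 deviation of the 51 members from their 6-library means was -0.0017, -0.027 and -0.010 in overexpression and -0.017, 0.032 and 0.024 in control replicates 1, 2 and 3, so control replicate 1 lay among the overexpression libraries. Control replicate 2 was the highest library for 13 members and overexpression replicate 3 the lowest for 12. The Pearson correlation of these deviations with transcript GC content over the 51 members was 0.59 in control replicate 1, 0.36 in control replicate 3 and 0.33 in overexpression replicate 2, and -0.50 in overexpression replicate 3, -0.19 in overexpression replicate 1 and -0.095 in control replicate 2.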
